A study of Homo sapiens with 2 samples.

Results

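The ubiquitin-conjugating (E2) enzyme genes were followed in the human liver cancer cell line SNU449. The cells carried either an shRNA against FZD2, a frizzled receptor for Wnt ligands (FZD2-shRNA cells), or a negative control shRNA (control cells), delivered by lentivirus 7 days earlier. Poly(A)-selected RNA of each culture was sequenced once, so there were 2 libraries, 1 per group, and both shared the cell line, the lentiviral delivery and the time. The members were the protein-coding genes whose symbol is UBE2 followed by 1 letter and an optional number. From RefSeq 33 such genes were taken, and 31 of them were among the 19316 genes listed in either library. The remaining pair, UBE2L5 and UBE2U, was unlisted in both libraries. The labels name 1 FZD2 shRNA without its sequence, so any effect of that hairpin other than on FZD2 cannot be told apart from that of the target. The growth protocol calls the cells prostate, whereas the cell type label says liver. Of 8 hepatocyte markers 0 reached 1 FPKM (fragments per kilobase of gene, scaled to library size), with ALB at 0.05 FPKM in FZD2-shRNA cells and unlisted in control cells, and 4 of 8 prostate markers did, with KLK2 and KLK3 unlisted.

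An E2 enzyme takes activated ubiquitin from an E1 enzyme onto its catalytic cysteine and passes it, with an E3 ligase, to a substrate or to a growing chain. The family is small beside the many ligases it serves, and the E2 in use often sets which linkage is built. Chains linked through lysine 48 mark proteins for the proteasome, whereas those linked through lysine 63 carry signals in DNA repair and inflammatory signalling. Some members do not carry ubiquitin but the related modifiers SUMO, NEDD8 or ISG15.

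Expected counts summed to 8234592 in FZD2-shRNA cells (18303 genes listed) and 8436870 in control cells (18336 genes). FZD2 was at 15.76 FPKM in FZD2-shRNA cells against 59.45 FPKM in control cells (a log2 ratio of -1.85), which follows the labels. With 1 library per group there is no replicate error, no test of the conditions and no p-value. Sizes are log2 ratios of FZD2 shRNA over control on FPKM + 1. The call limit is 2-fold, a log2 ratio of at least 1 for higher genes and at most -1 for lower ones. A gene counts as measured at 1 FPKM or more in at least 1 library, and all 31 listed E2 genes were. A 95% interval, where given, is that of the ratio of expected counts scaled to library totals, and it covers counting error only. A gene is said to have shared reads where its expected count was not a whole number in 1 or both libraries, as results when a program divides reads between genes.

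As a family, the E2 genes were mostly at lower levels in FZD2-shRNA cells, by less than 2-fold. Once the trend of the ratios with GC content was taken out, their median rose. The median of all measured genes, non-coding ones included, rose as well, and that of the E2 genes remained below it. That is an unlike set, since 6223 of the 14377 measured genes have shared reads and the trend was fitted to genes without them. Of the 31, 23 had a log2 ratio below 0 (74.2%), against 54.7% of the 12159 measured protein-coding genes. The median was -0.49, beside -0.09 for protein-coding genes and 0.00 for all 14377 measured genes. At 2-fold, 2 were lower, UBE2N and UBE2G1 (6.45%, against a background of 7.30% of protein-coding genes), and 0 were higher (background 10.6%). The share called lower was thus near the background. With the GC trend taken out, the members' median was -0.09, beside 0.23 for all measured genes. On that scale 17 of 31 members lay below 0 and 0 were called lower. No background share and no median of protein-coding genes was computed for it. At 1.5-fold, 11 were lower (35.5%, background 23.3%) and 3 were higher (9.68%, background 20.6%). The counting interval of the ratio lay below 1 for 21 members (67.7%, background 41.9%) and above 1 for 6 (19.4%, background 32.3%), and it included 1 for UBE2S, UBE2W, UBE2J2 and UBE2B. Summed over the family, the level was 1254.2 FPKM in FZD2-shRNA cells against 1494.3 FPKM in control cells, or 0.221% and 0.235% of all FPKM. Some genes used as markers of other cell types also differed between the libraries, both of which came from the line SNU449. The 5 leukocyte markers summed to 22.76 FPKM in FZD2-shRNA cells against 15.43 FPKM in control cells, with CD3E unlisted in both. Nearly all of that difference came from CD68, at 19.45 FPKM in FZD2-shRNA cells against 12.15 FPKM in control cells (0.64, shared reads). PTPRC (0.03) and CD14 (-0.01) hardly differed. The 4 endothelial markers summed to 2.59 FPKM in FZD2-shRNA cells against 0.53 FPKM in control cells, with VWF unlisted in both, and PECAM1, the 1 measured, was called higher at 2.33 FPKM in FZD2-shRNA cells against 0.41 FPKM in control cells (1.24, shared reads). The 5 fibroblast markers summed to 318.64 FPKM in FZD2-shRNA cells against 407.19 FPKM in control cells, nearly all from COL1A1 and COL1A2. These went opposite ways. COL1A1 was at 119.9 FPKM in FZD2-shRNA cells against 100.13 FPKM in control cells (0.26), and COL1A2 at 198.48 FPKM against 306.36 FPKM (-0.62). PDGFRB, DCN and LUM were below 1 FPKM in both libraries. Whether the cultures held any other kind of cell was not tested, and neither was the part of these marker genes in the family's ratios. In these bulk samples, fewer cells of a kind and less RNA per cell cannot be told apart.

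**Figure D1:**
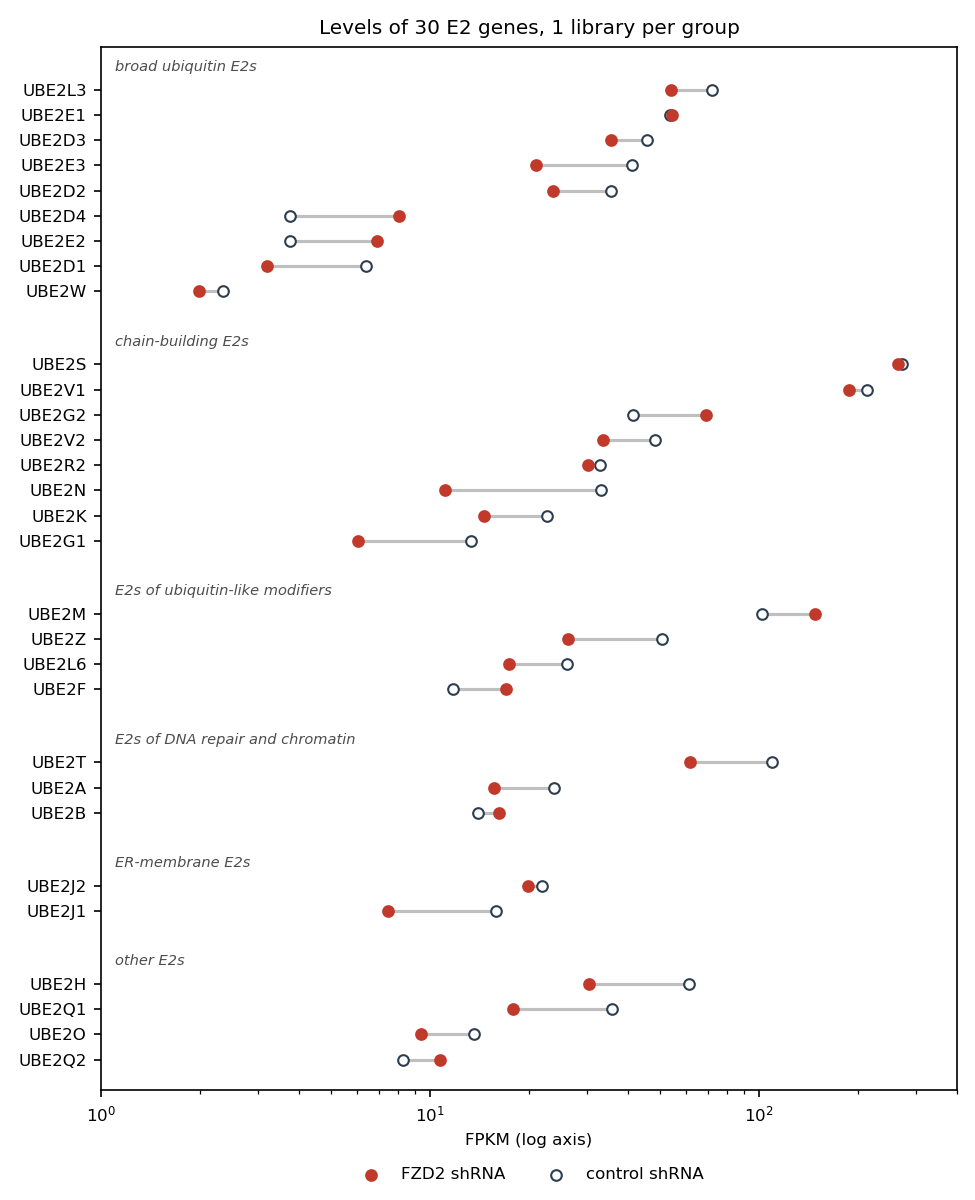
Level of 30 of the 31 E2 genes in FPKM (log axis) in FZD2-shRNA cells (filled red) and the control shRNA library (open), grouped by role and joined by a line. UBE2S, UBE2V1 and UBE2M stand above 100 FPKM in both libraries, while UBE2W is near 2 FPKM.

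Read sharing split the family. The 21 members without shared reads had a median log2 ratio of -0.57, and 18 of them (85.7%) were below 0, beside a median of -0.26 and 65.8% for protein-coding genes without shared reads. At 2-fold, UBE2N was the 1 lower (4.76%, background 9.33%) and 0 were higher (background 3.22%). At 1.5-fold, 10 of the 21 were lower (47.6%, background 29.6%) and 1 was higher (4.76%, background 10.0%). The 10 members with shared reads had a median of 0.01 and 5 of them were below 0, beside a median of 0.30 and 36.6% for protein-coding genes with shared reads. At 2-fold, UBE2G1 was the 1 lower of these 10 (background 4.01%) and 0 were higher (background 22.7%). Among the 8 members with a ratio above 0, 5 had shared reads, namely UBE2D4, UBE2G2, UBE2F, UBE2Q2 and UBE2B, and UBE2M, UBE2E2 and UBE2E1 did not. The part of read sharing in these ratios was not tested.

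**Figure D2:**
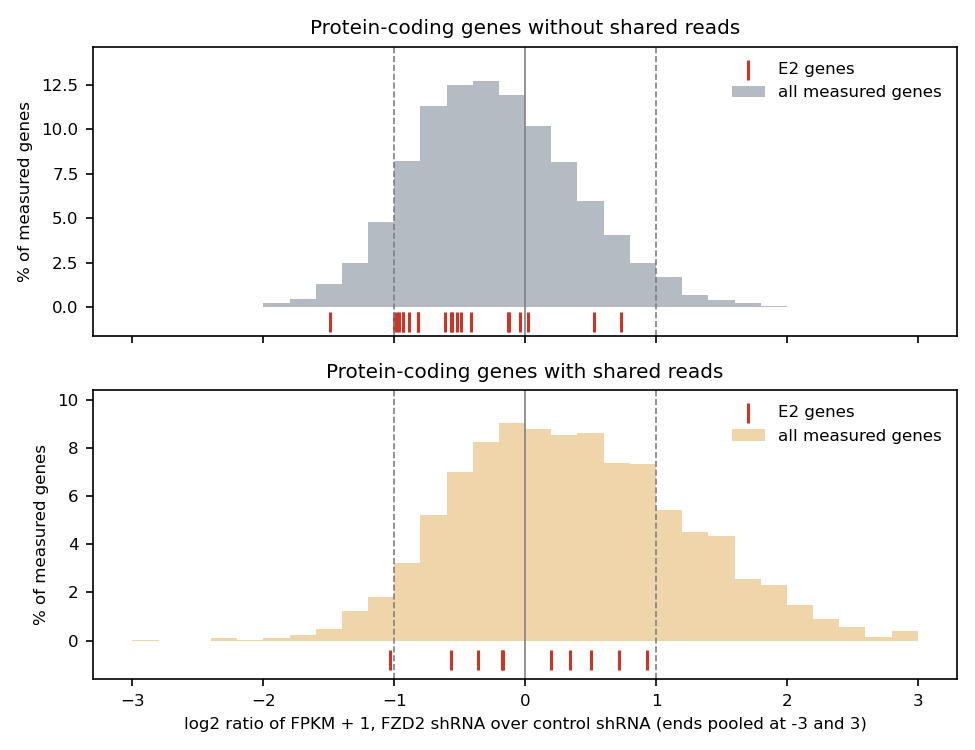
Log2 ratios (FZD2 shRNA over control, FPKM + 1) of measured protein-coding genes without shared reads (upper panel) and with them (lower panel), as the percent of genes per bin, with a red tick for each E2 gene and dashed lines at 2-fold. Of the 21 ticks in the upper panel 18 lie below 0, and of the 10 in the lower panel 5 do.

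The 8 chain-building E2s held both members called lower (25.0%, background 7.30% of protein-coding genes), and 0 were higher (background 10.6%). UBE2G1 was close to the limit at -1.027, and UBE2J1 of another role group lay just outside it at -0.997. UBE2N builds lysine 63 chains, and it was at 11.13 FPKM in FZD2-shRNA cells against 33.16 FPKM in control cells, a log2 ratio of -1.49. It had 237 reads in FZD2-shRNA cells and 725 in control cells, whole counts in both, and their scaled log2 ratio was -1.58 (95% interval -1.80 to -1.36). UBE2N needs a partner, UBE2V1 or UBE2V2, which has the E2 fold but no catalytic cysteine. UBE2V1 was at 187.73 FPKM in FZD2-shRNA cells against 213.35 FPKM in control cells (-0.18, shared reads), and UBE2V2 at 33.57 FPKM in FZD2-shRNA cells and 48.45 FPKM in control cells (-0.52). Summed, the partners stood at 221.3 FPKM in FZD2-shRNA cells against 261.8 FPKM in control cells. Thus the catalytic member of the pair was the lower one per length in each library, and in proportion more so in FZD2-shRNA cells.

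UBE2G1, which extends lysine 48 chains with cullin-RING ligases, was at 6.02 FPKM in FZD2-shRNA cells against 13.31 FPKM in control cells (-1.03). It had shared reads, with expected counts of 211.33 in FZD2-shRNA cells and 479.62 in control cells. The call is close to the limit: the ratio was -0.92 in TPM (FPKM rescaled to the same total in each library) and -0.73 with a pseudocount of 5. Its paralog UBE2G2, an E2 of the degradation of misfolded proteins from the endoplasmic reticulum (ER), went the other way, at 69.08 FPKM in FZD2-shRNA cells against 41.53 FPKM in control cells (0.72, interval of the count ratio 0.62 to 0.83, shared reads). The summed level of the pair was 75.1 FPKM in FZD2-shRNA cells against 54.84 FPKM in control cells, since UBE2G2 was the more abundant.

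UBE2K, which builds lysine 48 chains without needing a ligase, was at 14.56 FPKM in FZD2-shRNA cells against 22.69 FPKM in control cells (-0.61). UBE2R2, which serves cullin-RING ligases, was at 30.26 FPKM in FZD2-shRNA cells and 32.95 FPKM in control cells (-0.12). UBE2S, which extends lysine 11 chains on substrates of the anaphase-promoting complex, had the highest level of the family at 264.36 FPKM in FZD2-shRNA cells against 271.72 FPKM in control cells (-0.04). Its count interval, -0.12 to 0.03, included no difference. In order of level the family began with UBE2S, UBE2V1 and UBE2M, which together held 47.9% of the family's summed FPKM in FZD2-shRNA cells and 39.3% in control cells.

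**Figure D3:**
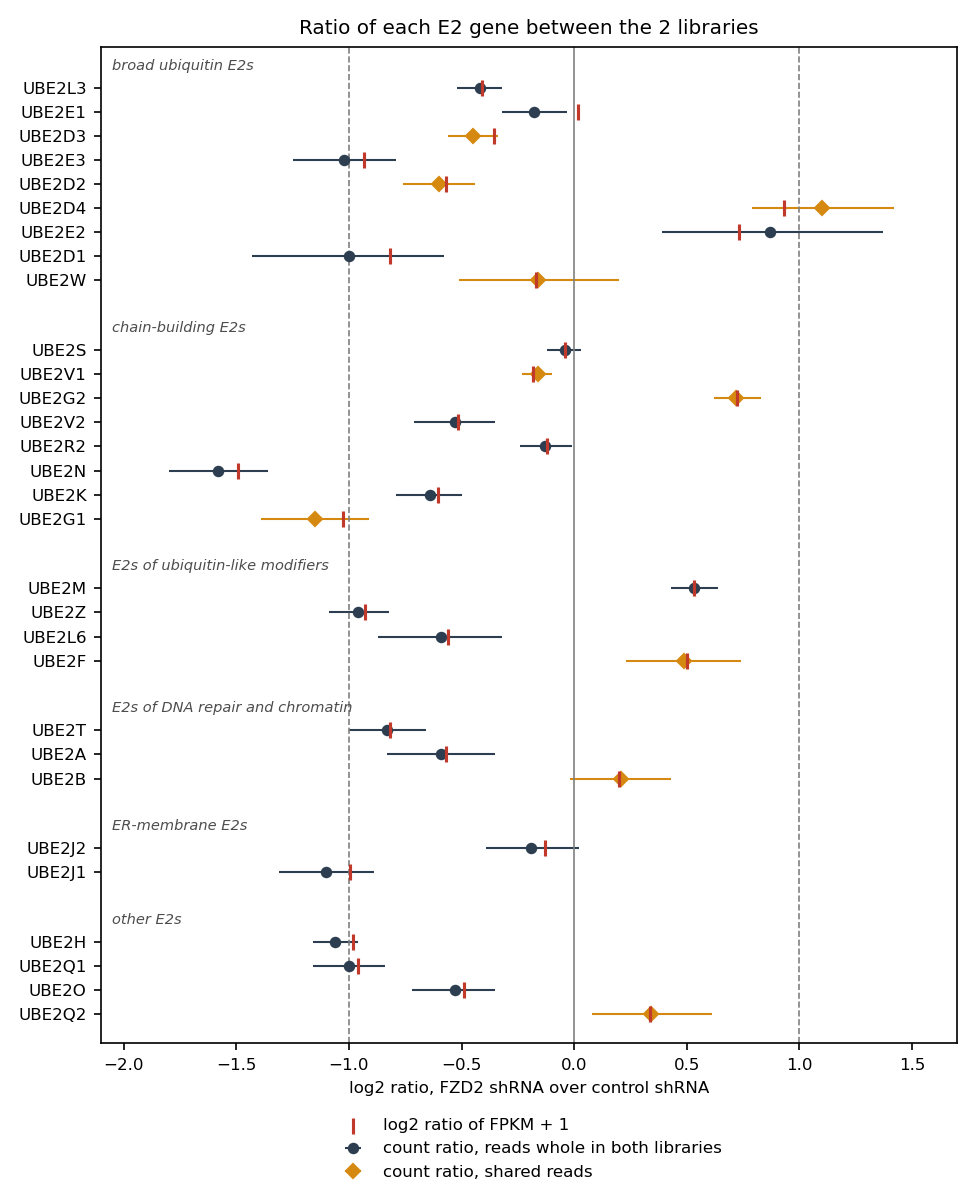
Ratio of 30 of the 31 E2 genes, FZD2 shRNA over control, on a log2 scale: points are ratios of expected counts scaled to library totals with 95% counting intervals (orange diamonds for genes with shared reads), and red bars are ratios of FPKM + 1. UBE2N lies farthest left at -1.49 and UBE2D4 farthest right at 0.93, and the bar and point of UBE2E1 lie on opposite sides of 0.

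Among the broad ubiquitin E2s, which work with many RING ligases, the closely related UBE2D genes diverged. UBE2D3 was at 35.49 FPKM in FZD2-shRNA cells against 45.75 FPKM in control cells (-0.36), and UBE2D2 at 23.65 FPKM in FZD2-shRNA cells and 35.58 FPKM in control cells (-0.57). UBE2D1 was at 3.19 FPKM in FZD2-shRNA cells against 6.38 FPKM in control cells (-0.82). UBE2D4 was the exception at 8.05 FPKM in FZD2-shRNA cells and 3.74 FPKM in control cells (0.93), the highest ratio of the family, just short of 2-fold. It passed 2-fold with a pseudocount of 0.1 (1.09), in TPM (1.14), in CPM (counts scaled to library totals without gene length, 1.05) and with the GC trend taken out (1.36). With a pseudocount of 5 the ratio was 0.58. Added together, the UBE2D genes were at 70.38 FPKM in FZD2-shRNA cells against 91.45 FPKM in control cells.

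The UBE2D genes are close in coding sequence, and 3 of the 4 had shared reads. Below is the same 90-base stretch, bases 173 to 262 of each 444-base coding sequence (GENCODE release 29 transcripts), shown because it holds the longest run shared by UBE2D2 and UBE2D3, with capitals at each base that differs from UBE2D3.
UBE2D1: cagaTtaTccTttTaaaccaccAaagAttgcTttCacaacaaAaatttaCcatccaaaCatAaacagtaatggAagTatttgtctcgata
UBE2D2: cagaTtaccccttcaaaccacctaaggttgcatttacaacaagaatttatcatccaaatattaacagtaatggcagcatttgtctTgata
UBE2D3: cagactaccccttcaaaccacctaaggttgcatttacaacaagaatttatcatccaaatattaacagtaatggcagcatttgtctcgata
UBE2D4: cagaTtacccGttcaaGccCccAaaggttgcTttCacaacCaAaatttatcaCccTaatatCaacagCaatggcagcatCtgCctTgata
UBE2D2 and UBE2D3 differ at 2 of these bases and have 80 in a row alike, whereas UBE2D1 and UBE2D4 differ from UBE2D3 at 14 and 16. Over the whole coding sequence UBE2D2 and UBE2D3 are 86.5% identical, and the longest run that UBE2D4 shares with UBE2D3 is 12 bases. The expected counts of UBE2D2 and UBE2D3 summed to 1653.00 in FZD2-shRNA cells and 2392.00 in control cells, whole numbers in both, although neither gene's own counts were whole. Of 7577 other genes with shared reads, 6 gave whole sums with UBE2D2 in both libraries (to a tolerance of 0.011), and UBE2D3 was the only one of them with a UBE2 name. UBE2D1 had whole counts, and UBE2D4 had shared reads with no such partner among family-named genes.

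The UBE2E genes diverged in the same manner. UBE2E3 was at 21.04 FPKM in FZD2-shRNA cells against 41.11 FPKM in control cells (-0.93), and UBE2E2 was at 6.9 FPKM in FZD2-shRNA cells and 3.76 FPKM in control cells (0.73). Both had whole counts, and the counting intervals of the ratios, -1.25 to -0.79 for UBE2E3 and 0.39 to 1.37 for UBE2E2, lay apart. UBE2E1 was at 54.21 FPKM in FZD2-shRNA cells against 53.55 FPKM in control cells (0.02), but it had 703 reads in FZD2-shRNA cells and 814 in control cells, and by counts the log2 ratio was -0.18 (-0.32 to -0.03). The gene length that the files give for UBE2E1 was 1578.52 bases in FZD2-shRNA cells against 1796.45 bases in control cells, a difference of -12.1% that enters FPKM and not the count. It was the largest length difference in the family. The length of UBE2W differed by 6.72% and that of UBE2D3 by -5.22%, 13 members had the same length in both libraries, and the others differed by less than 5%.

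UBE2L3, the E2 of HECT and RBR ligases, which carry ubiquitin on a cysteine of their own, was at 53.85 FPKM in FZD2-shRNA cells against 71.91 FPKM in control cells (-0.41). UBE2W, which attaches ubiquitin to the amino terminus of proteins, had the lowest level of the family at 1.98 FPKM in FZD2-shRNA cells and 2.35 FPKM in control cells (-0.17).

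The E2s of ubiquitin-like modifiers, 5 in all, had a median of -0.56. Both E2s of NEDD8, the modifier that activates cullins, had ratios above 0. UBE2M was at 148.07 FPKM in FZD2-shRNA cells against 102.11 FPKM in control cells (0.53, counting interval 0.43 to 0.64), and UBE2F at 17.02 FPKM in FZD2-shRNA cells and 11.72 FPKM in control cells (0.50, shared reads). UBE2L6, the E2 of the interferon-induced modifier ISG15, was at 17.36 FPKM in FZD2-shRNA cells and 26.03 FPKM in control cells (-0.56). UBE2Z, charged by the E1 enzyme UBA6, was at 26.23 FPKM in FZD2-shRNA cells against 50.82 FPKM in control cells (-0.93).

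Among the E2s of DNA repair and chromatin, UBE2T, the E2 of the Fanconi anaemia pathway, was at 61.79 FPKM in FZD2-shRNA cells against 109.52 FPKM in control cells (-0.82). UBE2A and UBE2B, the human counterparts of yeast RAD6, ubiquitinate histone H2B and the replication clamp with different ligases. UBE2A was at 15.69 FPKM in FZD2-shRNA cells against 23.8 FPKM in control cells (-0.57). UBE2B was at 16.16 FPKM in FZD2-shRNA cells and 13.97 FPKM in control cells (0.20, shared reads), and its counting interval, -0.02 to 0.43, included no difference. The pair therefore stood at similar levels in FZD2-shRNA cells, whereas UBE2B lay below UBE2A in control cells.

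The ER-membrane E2s act in the removal of misfolded proteins. UBE2J1 was at 7.43 FPKM in FZD2-shRNA cells against 15.83 FPKM in control cells, a log2 ratio of -0.997, just outside the 2-fold call, and UBE2J2 was at 19.88 FPKM in FZD2-shRNA cells and 21.85 FPKM in control cells (-0.13). UBE2H, the E2 of the CTLH ligase complex, lay beside UBE2J1 at 30.39 FPKM in FZD2-shRNA cells against 61.1 FPKM in control cells (-0.98). Both passed 2-fold in CPM, at -1.07 for UBE2J1 and -1.05 for UBE2H, and with a pseudocount of 0.1 (-1.08 and -1.01). They were weaker in TPM (-0.88 and -0.84), with a pseudocount of 5 (-0.74 and -0.90) and with the GC trend taken out (-0.48 and -0.52). UBE2Q1 was at 17.88 FPKM in FZD2-shRNA cells against 35.72 FPKM in control cells (-0.96), and its paralog UBE2Q2 at 10.71 FPKM in FZD2-shRNA cells and 8.28 FPKM in control cells (0.34, shared reads). UBE2O, a large enzyme that combines E2 and E3 functions, was at 9.41 FPKM in FZD2-shRNA cells and 13.59 FPKM in control cells (-0.49). Just inside the call was thus UBE2G1 at -1.027 and just outside were UBE2J1 at -0.997, UBE2H at -0.984 and UBE2Q1 at -0.960.

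GC content moved with the ratios of genes at large. A lowess trend of the log2 ratio on transcript GC content, fitted to measured genes without shared reads, ran from -0.53 at 35% GC through -0.36 at 50% to 0.19 at 65%. It had a median of -0.47 at the members' own GC contents, which ran from 33.9% to 65.6% with a median of 46.3%. Without shared reads, 15 of 21 members lay below the trend, with a median of -0.28. With shared reads, 2 of 10 did. UBE2N, at 41.7% GC, had -0.98 with the trend taken out, just short of 2-fold, and UBE2G1 had -0.51. Thus 0 members were called lower and 2, UBE2D4 (1.36, shared reads) and UBE2E2 (1.24), were called higher. No share of all genes past 2-fold was computed on this scale, so these counts cannot be read as particular to the E2 genes. The median of all measured genes was 0.23 on it, beside 0.00 before. In the pathway lists described below, calls went from 5 higher and 16 lower to 15 higher and 2 lower. UBE2Z, at 53.5% GC, had -0.70 with the trend taken out, and UBE2Q1 had -0.61. Within the family itself GC content and ratio were weakly related (Spearman's rho 0.19 across 31 genes of the same 2 libraries, a description only). Alu-like sequence was found in transcripts of 6 members, 4 of them with shared reads, and took 5.57% of UBE2B, 3.21% of UBE2G2, 2.62% of UBE2N, 1.96% of UBE2G1, 1.46% of UBE2D4 and 1.28% of UBE2V2.

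**Figure D4:**
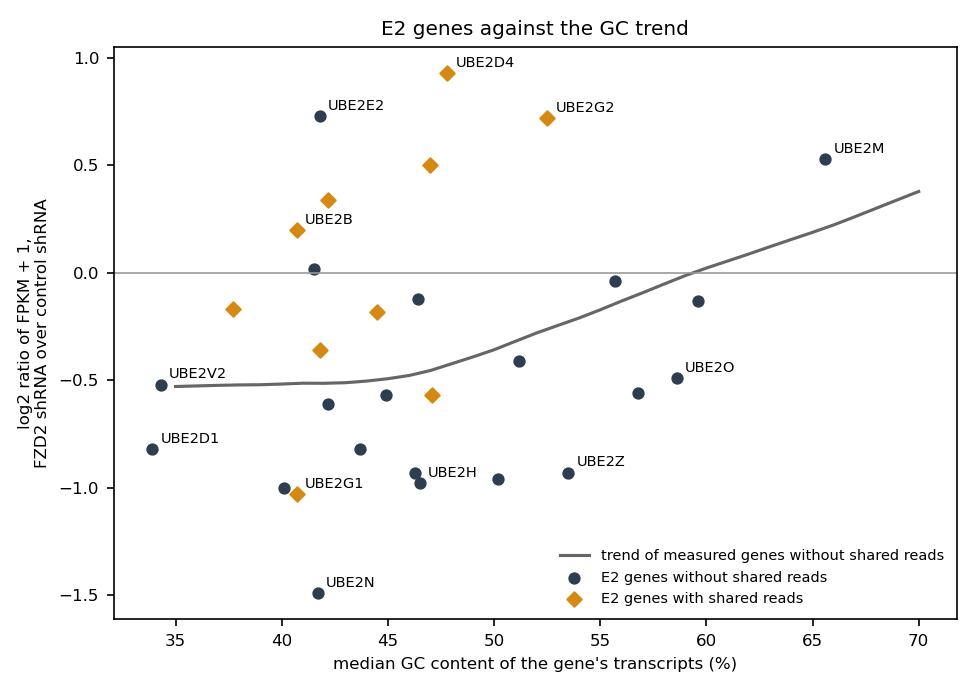
Log2 ratio of 30 of the 31 E2 genes (FZD2 shRNA over control, FPKM + 1) against the median GC content of its transcripts in percent, with circles for genes without shared reads, diamonds for genes with them, and the lowess trend of all measured genes without shared reads as a line. UBE2N and UBE2Z lie well below the line, and most of the diamonds lie above it.

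The 250 bases upstream of the start are shown for the members at the ends of the range, both called lower (UBE2N and UBE2G1) and the pair with the highest ratios (UBE2D4 and UBE2E2), from RefSeq on GRCh38.p14, 5′ to 3′ on the gene's strand. The positions are chr12:93441948-93442197, minus strand for UBE2N, chr17:4366676-4366925, minus strand for UBE2G1, chr7:43926186-43926435, plus strand for UBE2D4 and chr3:23202848-23203097, plus strand for UBE2E2. Capitals mark matches on either strand to GGGCGG (SP family), CCGGAAG (ETS family), CCAAT (NF-Y), CACGTG (MYC and other E-box factors), TGACGTCA (CREB and ATF) or TATAAA (bound by TBP), where matches may overlap.
UBE2N: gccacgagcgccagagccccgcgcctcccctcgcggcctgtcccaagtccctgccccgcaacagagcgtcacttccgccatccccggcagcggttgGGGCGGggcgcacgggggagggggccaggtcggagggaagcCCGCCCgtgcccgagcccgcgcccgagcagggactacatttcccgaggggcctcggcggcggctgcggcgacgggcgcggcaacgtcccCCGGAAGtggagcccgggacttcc
UBE2G1: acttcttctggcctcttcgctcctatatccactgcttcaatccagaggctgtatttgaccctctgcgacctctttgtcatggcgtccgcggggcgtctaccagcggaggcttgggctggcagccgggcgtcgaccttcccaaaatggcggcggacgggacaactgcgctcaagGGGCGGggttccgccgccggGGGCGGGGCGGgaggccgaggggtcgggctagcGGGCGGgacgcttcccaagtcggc
UBE2D4: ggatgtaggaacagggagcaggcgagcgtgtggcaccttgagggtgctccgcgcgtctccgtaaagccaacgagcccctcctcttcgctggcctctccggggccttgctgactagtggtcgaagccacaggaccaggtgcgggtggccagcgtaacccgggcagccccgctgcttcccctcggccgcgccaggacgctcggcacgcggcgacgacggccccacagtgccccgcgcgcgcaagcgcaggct
UBE2E2: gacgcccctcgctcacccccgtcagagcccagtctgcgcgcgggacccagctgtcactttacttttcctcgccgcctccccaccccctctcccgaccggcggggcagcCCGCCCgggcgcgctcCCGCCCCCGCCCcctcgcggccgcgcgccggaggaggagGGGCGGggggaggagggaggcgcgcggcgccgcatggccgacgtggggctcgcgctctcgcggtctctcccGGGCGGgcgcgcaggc
GGGCGG was found 2 times upstream of UBE2N, 4 times upstream of UBE2G1 and 5 times upstream of UBE2E2, and none of these motifs was found upstream of UBE2D4. CCGGAAG was found 1 time, upstream of UBE2N. Of 25 members with a promoter in the table, 22 held GGGCGG (88%), against 56% of 15843 protein-coding genes, and the median GC content of these windows was 72% for members and 62.4% for protein-coding genes. CCAAT was in 7 of the 25 (28%, all genes 34.5%), CCGGAAG in 4 (16%, all genes 11.8%) and CACGTG in 0 (all genes 7.84%). TGACGTCA and TATAAA were each in UBE2S alone. UBE2B, UBE2H, UBE2Q1, UBE2V2 and UBE2W were among those with no entry. GGGCGG thus stood upstream of members at both ends of the range.

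The steps before and after the E2s were read from 11 gene lists. Of 155 measured genes in them, 16 were lower (10.3%, background 7.30% of protein-coding genes) and 5 were higher (3.23%, background 10.6%), with a median of -0.28. The 10 E1 enzymes (median -0.57) included 3 called lower (30.0%, background 7.30%) and 1 called higher (10.0%, background 10.6%). UBA1, the main E1 of ubiquitin, was at 88.93 FPKM in FZD2-shRNA cells against 84.01 FPKM in control cells (0.08), and UBA6, its alternative, at 4.35 FPKM in FZD2-shRNA cells and 7.51 FPKM in control cells (-0.67). The lower ones serve other modifiers. UBA2, the catalytic E1 subunit of SUMO, was at 16.81 FPKM in FZD2-shRNA cells against 51.69 FPKM in control cells (-1.56). Both subunits of the NEDD8 E1 were lower as well, NAE1 at 29.03 FPKM in FZD2-shRNA cells and 72.25 FPKM in control cells (-1.29) and UBA3 at 10.25 FPKM in FZD2-shRNA cells and 24.05 FPKM in control cells (-1.15). MOCS3, which activates URM1 and a molybdenum cofactor protein, was higher at 10.97 FPKM in FZD2-shRNA cells and 4.72 FPKM in control cells (1.07, shared reads).

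The SUMO genes were set side by side after the values were seen, so their shared direction is a description only. Beside UBA2, SAE1, the other E1 subunit, was at 75 FPKM in FZD2-shRNA cells against 112.77 FPKM in control cells (-0.58, shared reads). SUMO2 was called lower at 175.44 FPKM in FZD2-shRNA cells and 358.32 FPKM in control cells (-1.03, shared reads), as was SUMO3 at 21.8 FPKM in FZD2-shRNA cells and 47.81 FPKM in control cells (-1.10). The 11 SUMO ligases and proteases (median -0.54) included 8 below 0 and 3 above it. At 2-fold, 2 were lower (18.2%, background 7.30% of protein-coding genes) and 0 were higher (background 10.6%). The lower ones were RANBP2, a nuclear pore SUMO ligase (4 FPKM in FZD2-shRNA cells against 10.07 FPKM in control cells, -1.15, shared reads), and the protease SENP1 (0.94 FPKM in FZD2-shRNA cells and 2.88 FPKM in control cells, a ratio right at the limit). With the GC trend taken out, UBA2 kept 2-fold (-1.06), and SUMO2 (-0.51), SUMO3 (-0.73), RANBP2 (-0.63) and SENP1 (-0.49) fell short of it.

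The NEDD8 genes were mixed, with the E1 subunits lower and the E2s UBE2M and UBE2F above 0. NEDD8 itself was at 270.41 FPKM in FZD2-shRNA cells against 361.85 FPKM in control cells (-0.42, shared reads). The 17 core genes of cullin-RING ligases (median -0.52) included 3 called lower (17.6%, background 7.30% of protein-coding genes) and 0 called higher (background 10.6%). The scaffold CUL2 was at 6.9 FPKM in FZD2-shRNA cells against 21.54 FPKM in control cells (-1.51, shared reads), CUL3 at 7.06 FPKM in FZD2-shRNA cells and 18.38 FPKM in control cells (-1.27), and the exchange factor CAND1 at 6.85 FPKM in FZD2-shRNA cells and 15.04 FPKM in control cells (-1.03, shared reads). RBX1, the RING protein that UBE2M works with, was at 31.87 FPKM in FZD2-shRNA cells and 37.68 FPKM in control cells (-0.23), and RNF7, the RING protein of UBE2F, at 53.91 FPKM in FZD2-shRNA cells against 33.73 FPKM in control cells (0.66, shared reads). After removal of the GC trend, CUL2 (-0.99), CUL3 (-0.74), CAND1 (-0.51), NAE1 (-0.77) and UBA3 (-0.63) were all short of 2-fold.

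**Figure D5:**
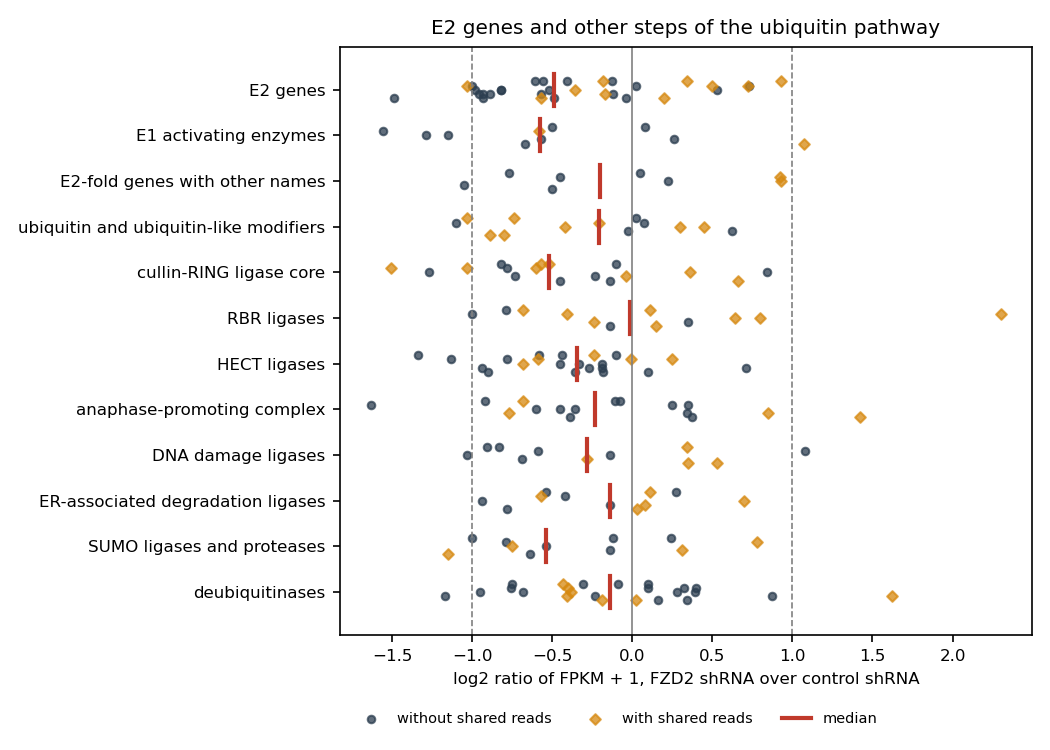
Log2 ratio (FZD2 shRNA over control, FPKM + 1) of every measured gene in the E2 family and in 11 lists of other pathway steps, with circles for genes without shared reads, diamonds for genes with them, a red bar at each median and dashed lines at 2-fold. Medians run from -0.57 (E1 activating enzymes) to -0.01 (RBR ligases).

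Ubiquitin and its relatives (13 measured of 14) had SUMO2 and SUMO3 lower (15.4%, background 7.30%) and 0 higher (background 10.6%), with a median of -0.21. The ubiquitin genes themselves differed, with UBB at 237.05 FPKM in FZD2-shRNA cells against 396.75 FPKM in control cells (-0.74, shared reads) and RPS27A at 804.31 FPKM in FZD2-shRNA cells and 819.88 FPKM in control cells (-0.03). Among 8 measured genes with an E2 fold but another name, 1 was lower (12.5%) and 0 were higher. The lower one was TSG101, an endosomal sorting protein, at 13.56 FPKM in FZD2-shRNA cells against 29.22 FPKM in control cells (-1.05). CDC34, the nearest relative of UBE2R2, was at 67.74 FPKM in FZD2-shRNA cells and 65.38 FPKM in control cells (0.05).

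In the ligase lists, shares called lower are read against 7.30% of protein-coding genes and shares called higher against 10.6%. Of 12 RBR ligases, 1 was higher (8.33%) and 0 were lower. Of 22 measured HECT ligases, 2 were lower (9.09%) and 0 were higher, and UBE3C, which extends chains at the proteasome, was among the lower ones (5.88 FPKM in FZD2-shRNA cells against 16.38 FPKM in control cells, -1.34). The anaphase-promoting complex list of 16, served by UBE2S, had 1 higher and 1 lower (6.25% each way), both shares below the background. Its subunit ANAPC16 was higher (82.06 FPKM in FZD2-shRNA cells and 30.11 FPKM in control cells, 1.42, shared reads). Its subunit CDC23 was lower (3.53 FPKM in FZD2-shRNA cells and 13.05 FPKM in control cells, -1.63).

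Of 11 DNA damage ligases, 1 was higher and 1 lower (9.09% each way). RNF20, which ubiquitinates histone H2B with UBE2A or UBE2B, was higher at 32.85 FPKM in FZD2-shRNA cells against 15.06 FPKM in control cells (1.08). FANCL, the ligase that UBE2T serves, was lower at 7.9 FPKM in FZD2-shRNA cells and 17.12 FPKM in control cells (-1.03), and RAD18, another partner of UBE2A and UBE2B, was at 4.86 FPKM in FZD2-shRNA cells and 10.03 FPKM in control cells (-0.91). Among 11 ER-associated degradation ligases 0 passed 2-fold in either direction (median -0.14), and SYVN1, a core ligase of that pathway, was at 5.09 FPKM in FZD2-shRNA cells against 7.86 FPKM in control cells (-0.54). Of 24 deubiquitinases, which remove ubiquitin, 1 was higher (4.17%, background 10.6%) and 1 was lower (4.17%, background 7.30%), with a median of -0.14. ATXN3 was higher (12.4 FPKM in FZD2-shRNA cells and 3.36 FPKM in control cells, 1.62, shared reads). UCHL5, a proteasome-bound enzyme, was lower (13.03 FPKM in FZD2-shRNA cells and 30.55 FPKM in control cells, -1.17). The counts of UCHL5 gave a smaller difference, -0.80 in CPM with a counting interval of -0.99 to -0.63, short of 2-fold. OTUB1, which binds and inhibits UBE2N and UBE2D enzymes, was at 23.24 FPKM in FZD2-shRNA cells against 21.65 FPKM in control cells (0.10).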

How the data were processed

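RNA was measured in 2 libraries, 1 per group, and no test of the conditions was possible. Bowtie2, HISAT and build hg19 are named, without roles, in the submitters' processing notes. The sources used here do not give the counting program, annotation or strand setting. The deposited expected counts are reads per gene as estimated by the authors' program, and need not be whole. The deposited FPKM values divide these by gene length and library size. The deposited gene lengths, per the file headers, can differ between libraries. Genes unlisted in a library were set to 0. Identifiers were matched to RefSeq symbols (GRCh38.p14), so no gene coordinates in hg19 are given.

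From the deposited FPKM, log2 ratios, log2((FPKM + 1) / (FPKM + 1)) were computed, with 1 FPKM as pseudocount and filter. Intervals are exact conditional binomial (Clopper-Pearson) intervals of rounded expected counts. Reads copied in amplification are not independent, so they cover counting error only. Counts were called whole to a tolerance of 0.001. The size rule and intervals were tested on simulated Poisson counts. GC content and Alu-like sequence (blastn 2.17.0 with RN7SL1, word size 11, E-value at most 1e-05) came from GENCODE release 29 transcripts. RefSeq accessions tied 96.1% of measured genes to such a transcript. The GC trend was a lowess fit (fraction 0.3, statsmodels 0.14.6). TMM factors came from edgeR 4.0.16. Python 3.11.15, NumPy 2.4.6, pandas 2.3.3, SciPy 1.17.1 and matplotlib 3.10.9 were used.

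The members and lists were chosen with earlier results of these data known. The rule names every member and, of each pathway list the genes past 2-fold, at most 3 per direction, plus partners of members chosen after their values were seen. Some genes it would name are not reported here, but count in totals and medians, except 1 family gene left out throughout. Alternatives were pseudocounts of 0.1 and 5, no filter, a filter of 5 FPKM, TPM, CPM with a pseudocount of 1, the median set to 0, TMM, limits of 1.5-fold and 4-fold, the counting interval, genes without shared reads, and the GC trend taken out. Of the marker lists, 0 of 8 hepatocyte, 4 of 8 prostate, 3 of 5 leukocyte, 1 of 4 endothelial and 2 of 5 fibroblast markers were measured.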

Additional observations from a re-analysis of the deposited data

How the results depend on the processing

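No paired analysis was possible because each group had 1 library. The E2 counts (0 higher and 2 lower) depended on the scale near the 2-fold limit. Members called higher numbered 1 with a pseudocount of 0.1, in TPM and in CPM, 2 with the GC trend taken out, 3 at 1.5-fold and 6 by the counting interval. Members called lower numbered 4 with a pseudocount of 0.1 and in CPM, 1 with a pseudocount of 5, in TPM and among genes without shared reads, 0 at 4-fold and with the GC trend taken out, 11 at 1.5-fold and 21 by the counting interval. The members' median of -0.49 moved to -0.09 with the GC trend taken out and lay between -0.57 and -0.35 under the other alternatives. The median of all measured genes was 0.00, 0.14 in TPM and 0.23 with the GC trend taken out, so the members moved farther than genes at large under the GC alternative. Under no alternative did a called E2 gene change sign.

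Over the pathway lists (5 higher and 16 lower), the count of higher genes was 3 with a pseudocount of 5, 10 in TPM, 8 in CPM, 17 at 1.5-fold, 1 at 4-fold and among genes without shared reads, 35 by the counting interval and 15 with the GC trend taken out. The count of lower genes was 27 with a pseudocount of 0.1, 5 with a pseudocount of 5, 25 in CPM, 50 at 1.5-fold, 0 at 4-fold, 85 by the counting interval and 2 with the GC trend taken out. The median of -0.28 became 0.06 with the GC trend taken out. Of the 21 list genes called, 13 missed the limit with a pseudocount of 5, 5 in TPM, 1 (UCHL5) in CPM and 14 after removal of the GC trend. Depth limits UBE2D1, UBE2E2 and UBE2W most, with 71, 100 and 125.95 expected counts in FZD2-shRNA cells. The causes were not tested.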

Other observations

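Family-named genes outside the members were listed too. UBE2Q2P1, a transcribed pseudogene related to UBE2Q2, was at 49.84 FPKM in FZD2-shRNA cells against 7.72 FPKM in control cells, a log2 ratio of 2.54, beyond every E2 gene. Its expected counts were 885.70 in FZD2-shRNA cells and 140.97 in control cells, a count ratio interval of 2.43 to 2.95 on the log2 scale, and neither was whole. Alu-like sequence took 6.23% of its transcript. UBE2Q2 was at 10.71 FPKM in FZD2-shRNA cells against 8.28 FPKM in control cells, so the pseudogene stood above its parent in FZD2-shRNA cells and slightly below it in control cells. UBE2Q2P2 was at 1.99 FPKM in FZD2-shRNA cells and 1.04 FPKM in control cells. The readthrough transcript UBE2F-SCLY, which overlaps UBE2F, was at 5.02 FPKM in FZD2-shRNA cells and 5.07 FPKM in control cells. Its expected counts were 123.93 in FZD2-shRNA cells and 128.66 in control cells, neither of them whole. No gene with a UBE2 name gave whole sums in both libraries with UBE2F or with UBE2Q2. Partners were tried 1 at a time, so reads divided among more genes were not covered. The antisense gene UBE2Q1-AS1 was at 0.88 FPKM in FZD2-shRNA cells and 1.99 FPKM in control cells, on 3 reads and 7 reads, and whether counting used strand is not stated here.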
